A study of Mus musculus with 96 samples.

Results

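Genes of antioxidant defence were followed through 3 chromatin profiles of the mouse hippocampus. The group holds 42 genes, chosen by name for their roles in removing superoxide and peroxides, in reducing oxidised thiols and in controlling these enzymes. A peak belonged to the group when the deposited annotation gave it the symbol of one of these genes. By this rule 46 of the 22815 peaks of all tables, 0.202%, belonged to 33 of the 42 genes, and 9 genes had no peak.

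ChIP-seq had been done with antibodies against H3K4me3, a histone mark of active and poised promoters, H3K27me3, the repressive mark of Polycomb, and Suz12, a core subunit of the Polycomb repressive complex 2 that places H3K27me3. Nuclei came from the hippocampus of male C57BL/6N mice aged 6 months and were sorted on NeuN, a nuclear protein of most neurons, into NeuN+ (neuronal) and NeuN- (non-neuronal) fractions. The genotypes were wild type (WT), Mutyh-/-, Ogg1-/- and the DKO that lacks both, each with 3 replicates per antibody and fraction, so that 6 tables of 12 libraries, 72 libraries in all, were used. Mutyh and Ogg1 encode DNA glycosylases that start the repair of oxidised guanine and of adenine mispaired with it. No cell-type driver is named for either deletion, and each sample pooled hippocampi of several animals of 1 genotype. The p-values therefore rest on the spread between pooled samples and not between single animals. In the main fit that spread was taken in part, for H3K4me3, or wholly, for H3K27me3 and Suz12, from a trend over all peaks.

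Superoxide is turned into hydrogen peroxide by superoxide dismutases, and peroxides are removed by catalase, glutathione peroxidases and peroxiredoxins. The last 2 families draw electrons from glutathione and thioredoxin, which are kept reduced by reductases that use NADPH. The transcription factor NRF2, encoded by Nfe2l2, is held low by KEAP1 and, under oxidative or electrophilic stress, binds antioxidant response elements (AREs) in many of these genes. In the brain, NRF2 activity is known to be stronger in astrocytes than in neurons.

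The sequences on which the results below turn are those of Nfe2l2, the only member with both an H3K4me3 and an H3K27me3 peak in the same fraction, NeuN+, and of Prdx1, which is shown as a member promoter with an ARE core beside that of Nfe2l2. All are from RefSeq or the GRCm38.p6 sequence and are written 5′ to 3′ on the strand of the gene. The bases of Nfe2l2 shared by its H3K4me3 and H3K27me3 windows are chr2:75704093-75704359 on the minus strand, and the 250 bases before its start are chr2:75704664-75704913. The 250 bases before the start of Prdx1 are chr4:116685349-116685598 on the plus strand. Capitals mark the GC box GGGCGG in the shared Nfe2l2 window and the ARE core, TGACNNNGC on either strand, in the stretches before the starts of Nfe2l2 and Prdx1.
Nfe2l2, shared window: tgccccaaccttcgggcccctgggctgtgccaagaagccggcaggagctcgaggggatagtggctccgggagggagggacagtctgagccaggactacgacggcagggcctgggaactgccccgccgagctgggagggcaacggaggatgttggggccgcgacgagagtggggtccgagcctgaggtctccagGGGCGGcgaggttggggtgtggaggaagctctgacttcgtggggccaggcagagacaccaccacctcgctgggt
Nfe2l2, before the start: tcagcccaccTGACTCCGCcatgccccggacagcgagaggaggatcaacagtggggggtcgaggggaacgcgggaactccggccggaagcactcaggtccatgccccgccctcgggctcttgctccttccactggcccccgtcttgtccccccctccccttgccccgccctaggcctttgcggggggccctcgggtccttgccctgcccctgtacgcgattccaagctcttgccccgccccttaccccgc
Prdx1, before the start: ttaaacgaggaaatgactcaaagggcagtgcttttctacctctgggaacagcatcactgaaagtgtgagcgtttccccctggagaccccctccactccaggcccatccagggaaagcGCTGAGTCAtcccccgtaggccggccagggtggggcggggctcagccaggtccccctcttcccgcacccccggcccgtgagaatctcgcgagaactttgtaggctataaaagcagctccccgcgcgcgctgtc

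Promoters in the RefSeq table matched 36 of the 42 genes and gave 52 promoters, 7 genes having several. An ARE core was found in 250 upstream bases of 7 of these 52 promoters, 13.5%, against 10.2% of all 32851 promoters. The 7 genes were G6pdx, Gclm, Nfe2l2, Prdx1, Sesn2, Sod1 and Txnrd1. The ARE core shares its first letters with the AP-1 site TGACTCA, so a match to one can be a match to the other. The GC box stood in 61.5% of the member promoters and in 32.7% of all. Among genes with an H3K4me3 promoter peak in NeuN+ nuclei, however, the shares were 59.1% for members and 59.8% for all, and those of the ARE core 13.6% and 11.6%. These are matches of letters in a fixed stretch, on both strands, and not sites of binding.

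Libraries of NeuN+ nuclei held 96023 to 548706 reads in H3K4me3 peaks, 23794 to 52344 in those of H3K27me3 and 6652 to 33035 in those of Suz12. Libraries of NeuN- nuclei held 39320 to 120004, 19132 to 78250 and 11887 to 66148 respectively, and a single peak held between 20.6% and 73.8% of the reads of a NeuN- library. In NeuN+ libraries a single peak held up to 4.02% of the reads for H3K4me3, 46.9% for H3K27me3 and 45.8% for Suz12. DKO replicate 1 of H3K4me3 in NeuN+ nuclei was the shallowest library of its table, with 96023 reads, and 1 read was worth 2.26 units there. As a check of the sort, promoter H3K4me3 peaks were present for 8 of 10 neuronal marker genes in NeuN+ nuclei and for 0 of 10 in NeuN- nuclei. Of 21 markers of non-neuronal cells, 4 had one in NeuN+ nuclei (Slc1a3, Slc1a2, Sox9 and Mbp) and 2 in NeuN- nuclei (Slc1a2 and Olig1). The Ogg1 promoter had an H3K4me3 peak in NeuN+ nuclei, with 15.4, 5.85 and 10.8 in WT, 17.8, 6.16 and 13.8 in Ogg1-/- and 0, 14.5 and 5.31 in DKO libraries, the 0 being that of the shallow library, and Mutyh had no peak. A promoter mark does not check these deletions.

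H3K4me3 was found at the promoters of most antioxidant genes in neurons. In NeuN+ nuclei 37 of the 12628 H3K4me3 peaks belonged to 33 members, and 36 of these were annotated to a promoter within 1 kb of a start. The exception lay at -3725 bp from the start of Gclc. Sesn1, Nfe2l1, Msra and Gclc had 2 peaks each. In NeuN- nuclei 7 of the 3270 peaks were of members, at Prdx6, Nfe2l1, Hmox2, Sod2, Cat, Gsr and Sesn3, and all 7 genes also had a peak in NeuN+ nuclei. Of all genes with an H3K4me3 peak in NeuN+ nuclei, 26.1% had one in NeuN- nuclei, and of the members 21.2%. The NeuN- libraries mostly held fewer reads in H3K4me3 peaks, a number that also depends on how many peaks were called. A gene without a peak there was not detected and was not shown to lack the mark. The cause of the smaller number of peaks was not tested.

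The genes with no peak were Sod3, the secreted dismutase, Gpx3 and Gpx8, Prdx4, Txnrd2, Txnip, Nqo1, Glrx3 and G6pdx. A name from the closest gene can hide a marked promoter. The start of Glrx3, a cytosolic glutaredoxin, lay 238 bp from an H3K4me3 window named for Gm12669 at chr7:137437811-137438211, with a WT mean of 31.1 in NeuN+ nuclei.

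**Figure D1:**
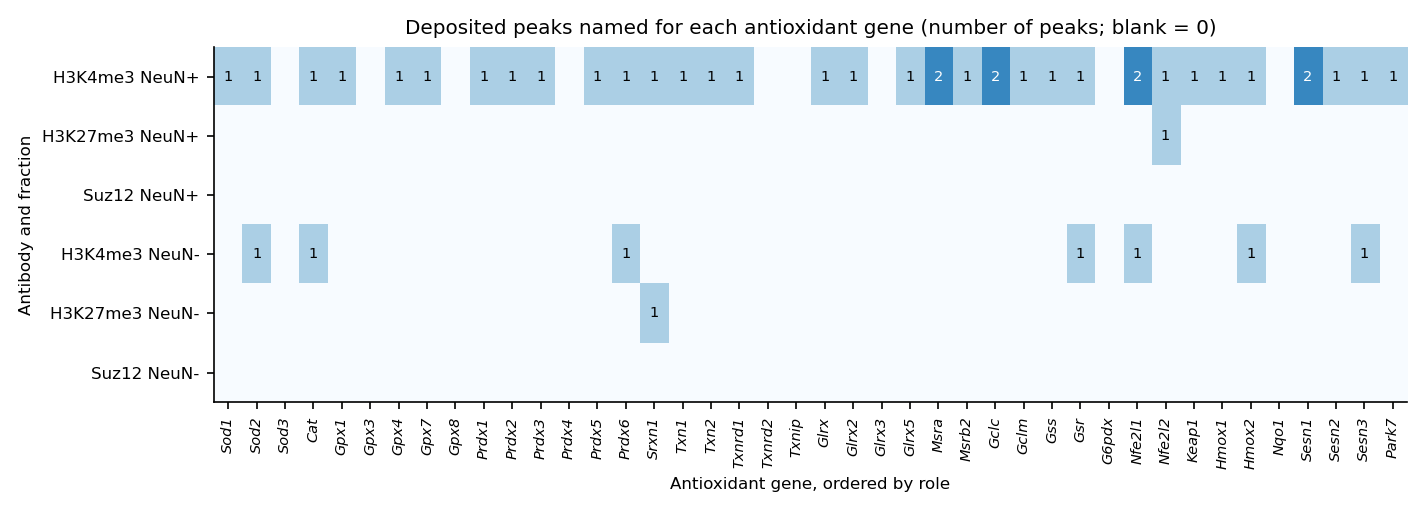
Number of peaks (printed and by shade, blank for 0) named for each of the 42 genes (horizontal axis, by role) in each of the 6 tables of antibody and fraction (vertical axis). The H3K4me3 NeuN+ row is filled for 33 genes, the H3K4me3 NeuN- row for 7, each H3K27me3 row for 1 and the Suz12 rows for 0.

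Values are signal, that is reads in a window of 401 bp divided by a factor for each library, so that levels of different genes are compared over the same length. In WT neurons the 36 member promoters had a median H3K4me3 level of 24.3, with a range from 6.00 to 37.1, and all 11651 promoter peaks had a median of 24.1. The median member level was also near that of all promoters in Mutyh-/- (21.2 and 22.6), Ogg1-/- (25.01 and 25.8) and DKO nuclei (22.6 and 23.7). Within single libraries the ratio of the 2 medians lay between 0.875 and 1.06. GC content was alike too, with a median of 65.7% for members and 67.1% for all promoter windows.

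The highest WT levels were those of Gclc, Srxn1 and Sesn2. Gclc encodes the catalytic subunit of the enzyme that limits glutathione synthesis, and its promoter had 38.6, 37.1 and 35.5 (37.1 ± 1.53, SD, n = 3). Srxn1, which reactivates overoxidised peroxiredoxins, had 38.6, 33.2 and 38.8 (36.8 ± 3.18). Sesn2, a stress-induced sestrin, had 42.5, 32.2 and 35.5 (36.7 ± 5.23). These 3 differed from each other by less than the SD of Sesn2.

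The lowest levels were found at Msra, which repairs oxidised methionine and has 2 marked promoters, and at Glrx5, a mitochondrial glutaredoxin of iron-sulfur cluster assembly. The Msra promoter peak that starts at 64440561 on chromosome 14 had 1.29, 4.88 and 11.9 (6.00 ± 5.37), and the one that starts at 64416313 had 9.004, 11.7 and 11.9 (10.9 ± 1.60). Glrx5 had 9.004, 11.7 and 7.54 (9.42 ± 2.12). All 3 means were below the lower quartile of all promoters, 17.6.

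**Figure D2:**
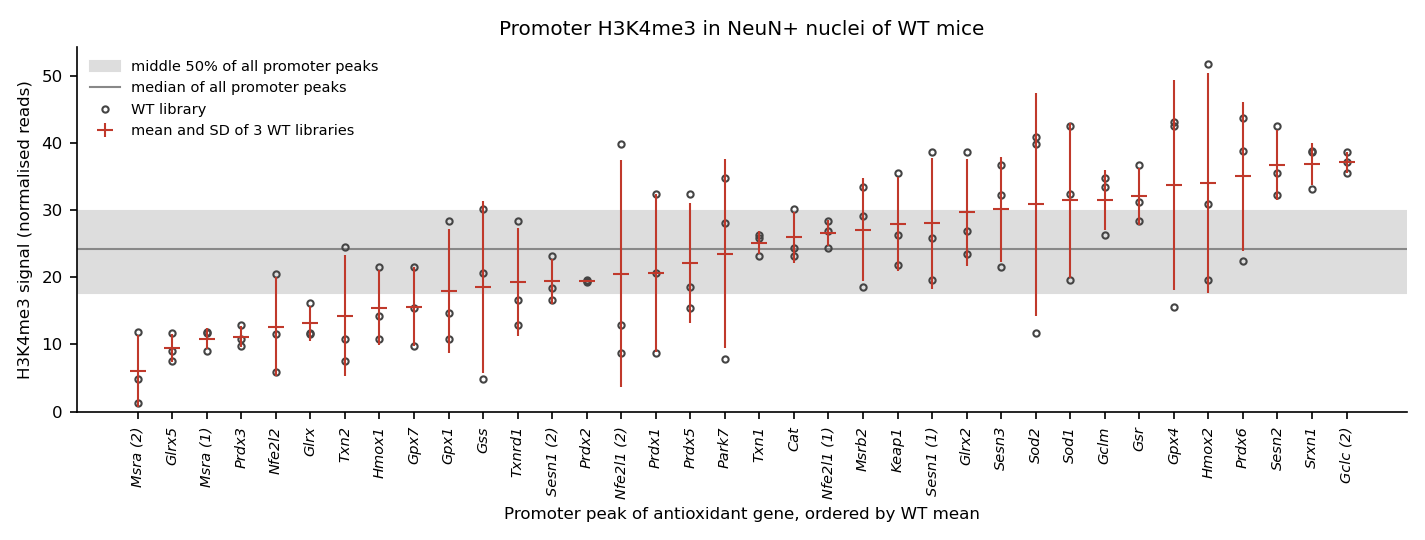
H3K4me3 signal in WT NeuN+ nuclei (normalised reads per window, vertical axis) at the 36 member promoters in order of their mean, with circles for the 3 libraries and red bars for mean and SD; the grey line and band are the median and the middle 50% of all promoter peaks, and (1) and (2) number peaks of one gene by start position. Means run from 6.00 at Msra to 37.1 at Gclc.

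By role, the promoters of both marked dismutases, Sod1 in the cytosol and Sod2 in mitochondria, had WT means of 31.4 and 30.8. The 4 marked genes of catalase and the glutathione peroxidases (Cat, Gpx1, Gpx4 and Gpx7) lay between 15.6 and 33.7, and the 6 peaks of peroxiredoxins and Srxn1 between 11.1 and 36.8. The thioredoxin system (Txn1, Txn2 and Txnrd1) lay between 14.2 and 25.1, and the glutathione enzymes (Gclc, Gclm, Gss and Gsr) between 18.5 and 37.1. Nfe2l2, Nfe2l1, Keap1, Hmox1 and Hmox2 lay between 12.6 and 34.0, with Nfe2l2 lowest. The sestrins and Park7, which encodes the redox-sensitive protein DJ-1, lay between 19.4 and 36.7.

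Each knockout was then compared with WT to ask whether loss of the glycosylases moved the mark at these genes. A peak was called when its limma fold change exceeded 0.5 in either direction on the scale of log2(signal + 1) and its p, before adjustment, was below 0.05. In NeuN+ nuclei 1 of the 37 H3K4me3 peaks of members was called in any knockout, Glrx2, which was lower in Mutyh-/- (background 2.93% of all peaks called in any knockout, and 0.57% called lower in Mutyh-/-). Of all peaks, 0.911% were called in Mutyh-/-, 0.966% in Ogg1-/- and 1.46% in DKO. With limma 0 members were called in Ogg1-/- and 0 in DKO, and 0 had a p under 0.05 before adjustment in either. On recovered reads edgeR called 3 in Ogg1-/- (Glrx, Gsr and Prdx3) and Glrx2 in DKO, and DESeq2 called Prdx3 in Ogg1-/- and Glrx2 in DKO. Limma with TMM factors called Msrb2 and Srxn1 lower beside Glrx2 in Mutyh-/-, and Glrx2 in DKO.

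Glrx2 encodes a mitochondrial and nuclear glutaredoxin, which reduces disulfides formed with glutathione. Its promoter window had 38.6, 23.4 and 26.9 in WT, 25.1, 9.19 and 12.3 in Mutyh-/-, 21.4, 25.6 and 36.9 in Ogg1-/- and 11.3, 22.5 and 15.9 in DKO libraries. The lowest WT library lay below the highest Mutyh-/- one, and all 3 DKO libraries lay below all WT libraries. The fold change was -0.98 ± 0.47 (SE) in Mutyh-/- (limma, adjusted p = 0.9998, 95% interval -1.93 to -0.03), -0.82 in DKO (95% interval -1.78 to 0.13) and -0.08 in Ogg1-/- (-1.04 to 0.87). The Mutyh-/- call was also made with edgeR (-0.85) and DESeq2 (-0.83). It was lost when Mutyh-/- replicate 2 (-0.69), Mutyh-/- replicate 3 (-0.88), WT replicate 1 (-0.78) or WT replicate 3 (-1.03) was left out, and also without Ogg1-/- replicate 1 or DKO replicate 3, which enter only the estimate of the spread. Lower signal in bulk nuclei can mean fewer cells with the mark or less mark in each cell, which cannot be told apart.

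Over the 37 member peaks the median log2 fold change was -0.02 in Mutyh-/- (all peaks -0.07), 0.06 in Ogg1-/- (0.08) and -0.08 in DKO (-0.02). Differences were positive for 18, 21 and 16 members and negative for 19, 16 and 21. Their ranges were -1.29 to 1.01, -0.66 to 1.21 and -1.60 to 1.03. The 3 comparisons share the WT libraries. The median half-width of the 95% interval was 1.02, and 28, 29 and 27 of the 37 differences were within 0.5 of 0. Most differences were therefore smaller than the half-width of the interval of a single promoter.

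At the enzymes that remove superoxide and peroxides no call was made with limma. The fold changes of the dismutases lay between -0.21 and 0.46 over the 3 knockouts and those of catalase and the glutathione peroxidases between -0.56 and 0.58. Peroxiredoxins and Srxn1 lay between -0.78 and 0.97. Among them, Prdx2 was above WT in all 3 DKO libraries, with 24.8, 20.1 and 22.7 against 19.3, 19.5 and 19.4, at a fold change of 0.20. Srxn1 had 9.81, 25.7 and 35.9 in Mutyh-/- against 38.6, 33.2 and 38.8 in WT, and its highest Mutyh-/- value lay above the lowest WT value (-0.78, 95% interval -1.61 to 0.05). Without Mutyh-/- replicate 1 the Srxn1 difference was -0.27, and without Mutyh-/- replicate 3 it was called (-1.15).

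The thioredoxin genes lay between -0.33 and 0.44. Txn1 was above WT in all 3 Ogg1-/- libraries, with 33.3, 30.8 and 39.2 against 23.2, 26.3 and 25.9 (0.44, 95% interval -0.35 to 1.22). The widest spread was that of the glutaredoxins and methionine sulfoxide reductases, from -1.59 to 1.21, whose lowest-level peaks are those of Glrx5 and Msra above. Msrb2, a mitochondrial methionine sulfoxide reductase, had 3.27, 23.0 and 23.7 in Mutyh-/- against 33.4, 18.5 and 29.1 in WT (-1.001, 95% interval -2.09 to 0.09), with overlapping groups. Without Mutyh-/- replicate 1 the difference was -0.17, and without replicate 2 or 3 of Mutyh-/- it was called (-1.41 and -1.43).

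The glutathione genes lay between -0.52 and 0.48, the NRF2 system between -1.60 and 0.50, and the sestrins and Park7 between -0.94 and 0.57. One of the Sesn1 promoters (chr10:41887484-41887884) had 23.2, 16.6 and 18.3 in WT and 29.4, 27.6 and 28.9 in Mutyh-/- libraries, all above WT (0.55, 95% interval -0.96 to 2.07). In DKO it had 0, 34.6 and 31.8. Srxn1, Msrb2 and the members with groups that did not overlap were named after their values were seen.

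Non-overlap with WT occurred in NeuN+ nuclei for 1 member in Mutyh-/- (Sesn1, above), 1 in Ogg1-/- (Txn1, above) and 2 in DKO (Prdx2 above and Glrx2 below), while 5.77%, 3.68% and 5.02% of all H3K4me3 peaks did not overlap.

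DKO replicate 1, the shallow library, held no read at 4 of the 37 member peaks, those of Sesn1, Glrx5, Prdx3 and Nfe2l2, where 3 reads would give 6.77, and 4.21% of all peaks had none there. Without it the DKO fold change of Sesn1 was 0.76, of Prdx3 0.90, of Glrx5 -0.71 and of Nfe2l2 -0.60, and the median of the members moved from -0.08 to 0.18 and that of all peaks from -0.02 to 0.21. With it the fold changes were -0.94, -0.60, -1.59 and -1.60. The direction of a DKO difference at Sesn1 and Prdx3 therefore depended on that library.

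**Figure D3:**
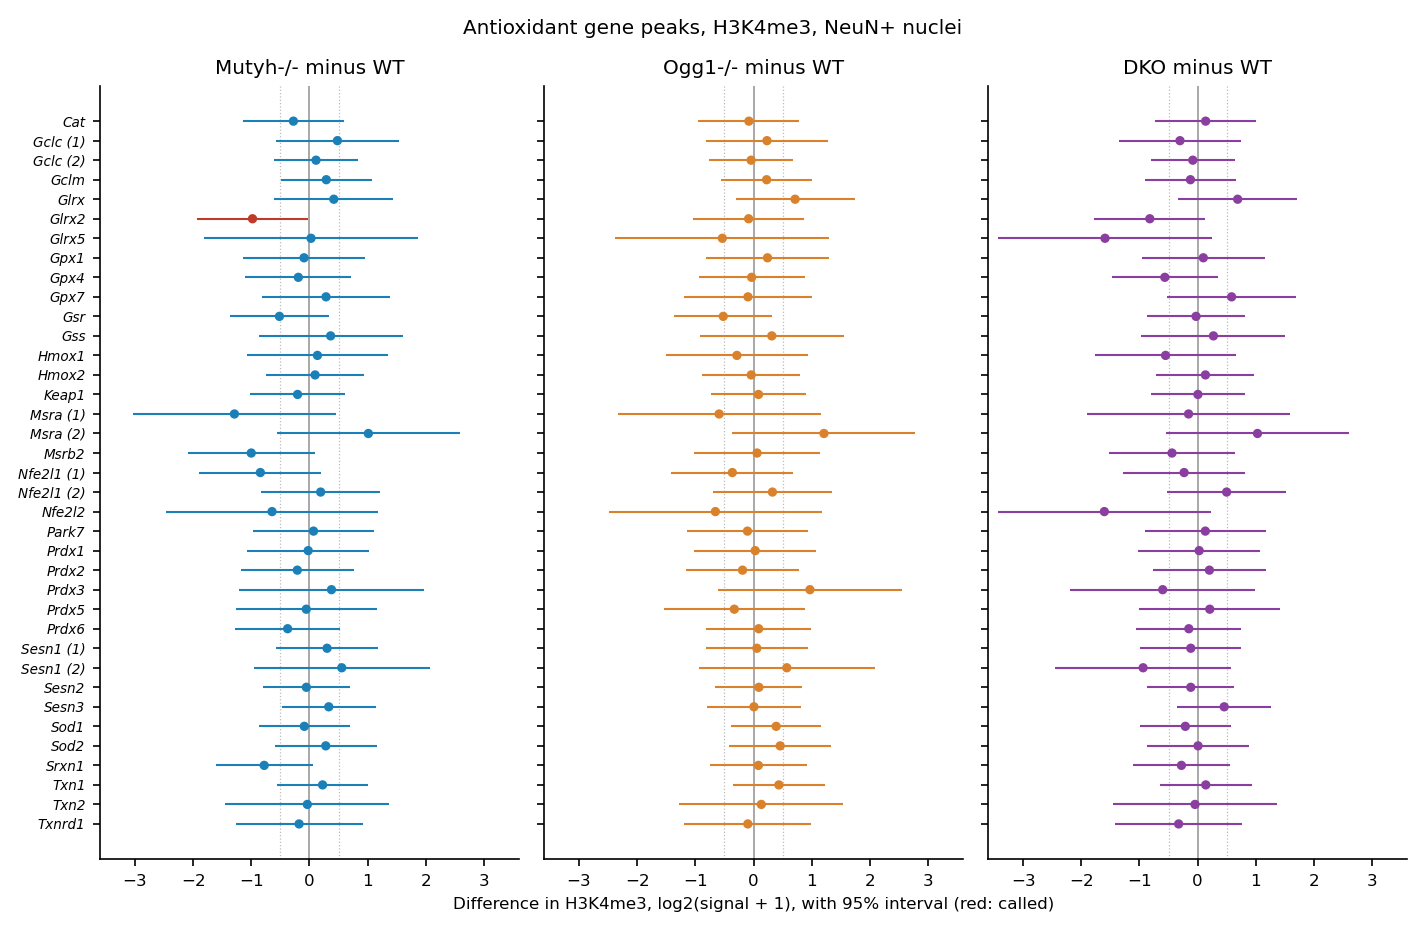
Difference of each knockout from WT in H3K4me3, on the log2(signal + 1) scale (horizontal axis), at the 37 member peaks of NeuN+ nuclei in alphabetical order, as points with 95% intervals from limma; dotted lines mark 0.5 and -0.5 and red marks a called peak. The interval of Glrx2 in Mutyh-/- ends at -0.03, and every other interval contains 0.

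The DKO was also tested for a departure from the sum of the 2 single knockouts, in a contrast of all 4 genotypes. In NeuN+ nuclei 0 of the 37 member peaks were called with limma, 0 had an unadjusted p under 0.05, and edgeR and DESeq2 each called 1 (Gsr), while 0.839% of all peaks were called. The median was -0.05 for members and for all peaks. The smallest p values were those of Sesn1 (-2.06), Prdx3 (-1.95) and Gsr (1.01), and at Sesn1 and Prdx3 the DKO group includes the library without reads. Without DKO replicate 1 the values of Sesn1 and Prdx3 were -0.36 and -0.45.

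Nfe2l2, which encodes NRF2, was the member with the lowest H3K4me3 level of its system and the only member with an H3K27me3 peak in NeuN+ nuclei. Its H3K4me3 window (chr2:75703959-75704359) and H3K27me3 window (chr2:75704093-75704493) overlapped by 267 bases, the stretch printed above, which overlapped no RefSeq exon of the gene. The deposited annotation put the H3K27me3 window at 0 bp and the H3K4me3 window at 130 bp from a start. The RefSeq start used for the printed upstream bases lay 170 bp from the H3K27me3 window. Of all 11651 promoter windows of H3K4me3 in NeuN+ nuclei, 1.1% overlapped an H3K27me3 window, and of the member windows 1 of 36. No member window overlapped one of Suz12, where 1.21% of all did, and the nearest Suz12 peak to Nfe2l2, named for Hoxd1, was 941335 bp away. In sorted nuclei taken in bulk, both marks on one allele and marks in different cells cannot be told apart.

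The H3K4me3 values of Nfe2l2 were 11.6, 5.85 and 20.5 in WT, 4.36, 9.19 and 7.88 in Mutyh-/-, 13.1, 2.05 and 10.0 in Ogg1-/- and 0, 4.02 and 12.1 in DKO libraries. All groups overlapped WT. The fold change in DKO was -1.60 (95% interval -3.43 to 0.23), and those in Mutyh-/- and Ogg1-/- were -0.64 and -0.66.

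The H3K27me3 values were 10.95, 15.5 and 9.48 in WT, 1.01, 7.74 and 5.00 in Mutyh-/-, 8.92, 10.5 and 26.7 in Ogg1-/- and 14.2, 10.7 and 12.0 in DKO libraries. All 3 Mutyh-/- libraries lay below all WT libraries, and the Ogg1-/- and DKO libraries overlapped them. Groups without overlap, in either direction, were found at 9.15%, 9.17% and 9.08% of all H3K27me3 peaks in the 3 knockouts. The fold change was -1.43 ± 0.74 (SE) in Mutyh-/- (limma, adjusted p = 0.998, 95% interval -2.88 to 0.02), where the median of all peaks was -0.21, and 0.20 and 0.05 in Ogg1-/- and DKO. The peak was not called in any genotype, with backgrounds of 3.78%, 3.82% and 3.36%, and 9.39% in any. Limma with TMM factors (-1.35), robust moderation or a replicate block called it in Mutyh-/-, and edgeR and DESeq2 (-1.30 each) did not. Without Mutyh-/- replicate 1 the fold change was -0.81, and without replicate 2 or 3 of Mutyh-/- the peak was called (-1.87 and -1.60). Mutyh-/- replicate 1 had 1 read in this window. In that library a single peak held 46.9% of the reads, and 26.7% of all peaks had no read.

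**Figure D4:**
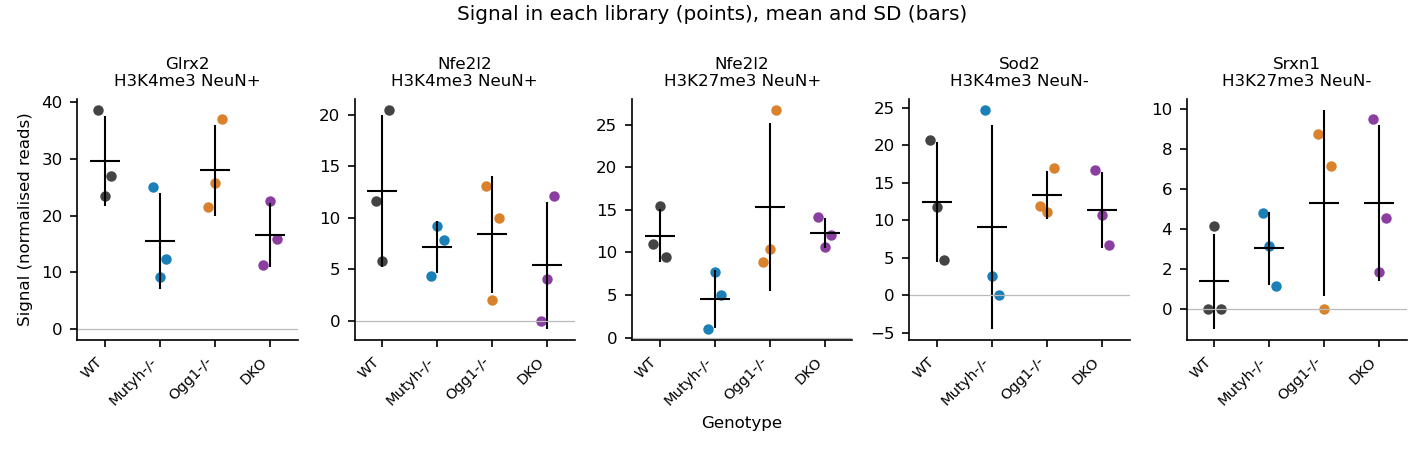
Signal (normalised reads, vertical axis, scaled per panel) in each library (points) with mean and SD (bars) by genotype, at the Glrx2 and Nfe2l2 H3K4me3 and Nfe2l2 H3K27me3 windows of NeuN+ nuclei and at the Sod2 H3K4me3 and Srxn1 H3K27me3 windows of NeuN- nuclei. For H3K27me3 at Nfe2l2, Mutyh-/- runs from 1.01 to 7.74 and WT from 9.48 to 15.5.

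In NeuN- nuclei the 7 member promoters had a median WT level of 8.81, against 8.88 for all 3026 promoter peaks. Hmox2, the constitutive heme oxygenase, was highest (15.4 ± 2.63), followed by Sod2 (12.4 ± 8.02) and Sesn3 (10.8 ± 5.09). Gsr, the glutathione reductase (8.74 ± 6.55), Cat (7.76 ± 5.36) and Nfe2l1, a relative of Nfe2l2 (4.73 ± 2.09), were lowest. Of these 6 genes only Hmox2 and Nfe2l1 had an SD under 3 units, and the neighbours in the order did not differ beyond their spread.

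None of the 7 was called in a knockout with limma, edgeR or DESeq2, and none had an unadjusted p under 0.05 with limma, while 2.94%, 3.36% and 2.29% of all peaks were called in Mutyh-/-, Ogg1-/- and DKO and 6.42% in any. The smallest p was that of Sod2, the mitochondrial dismutase (chr17:13008026-13008426). It had 20.7, 11.8 and 4.73 in WT, 24.7, 2.59 and 0 in Mutyh-/-, 11.9, 11.2 and 17.0 in Ogg1-/- and 16.7, 10.7 and 6.70 in DKO libraries. The Mutyh-/- libraries included both the highest and the lowest value, and the fold change was -1.37 ± 0.85 (SE), against a median over all peaks of 0.22. With TMM factors, which moved that median by -0.21, limma called Sod2 lower in Mutyh-/- (-1.66). Single libraries moved the value: it was -0.28 without Mutyh-/- replicate 3, -0.92 without WT replicate 1, and was called without Mutyh-/- replicate 1 (-2.62) or WT replicate 3 (-1.88). The member medians were 0.24, 0.71 and 0.00 and those of all peaks 0.22, 0.25 and 0.05. Cat had no read in 4 of the 12 libraries. No member had groups without overlap, as 9.24%, 8.29% and 5.02% of all peaks did. The DKO contrast for a departure from the sum called none with limma, edgeR or DESeq2 and gave no unadjusted p under 0.05, with a background of 3.03%.

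**Figure D5:**
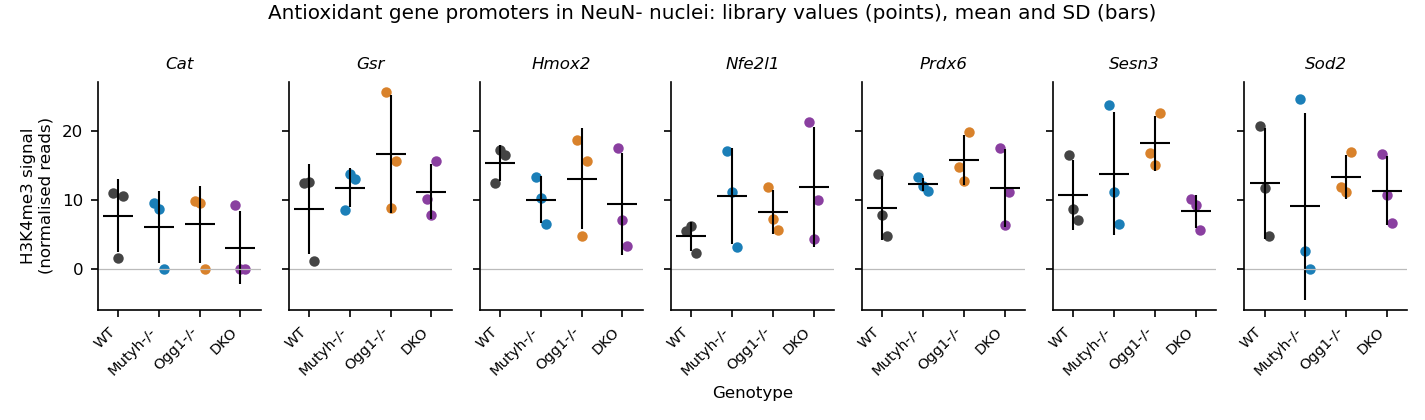
H3K4me3 signal per library (points) with mean and SD (bars) by genotype at the 7 member promoters of NeuN- nuclei. The groups of every gene overlap WT, and SD bars can reach below 0 although no value does.

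Whether the knockouts acted differently in the 2 fractions was tested over 3000 peaks that overlapped one to one between the H3K4me3 tables, 7 of them of members. Both fractions were collected when nuclei were sorted, but the libraries of the 2 fractions were treated as independent. A pool shared by same-numbered NeuN+ and NeuN- libraries was not modelled. With limma none of the 7 was called in Mutyh-/-, Ogg1-/- or DKO, and none had an unadjusted p under 0.05, with backgrounds of 2.3%, 1.8% and 1.8%. On recovered reads edgeR called 0 and DESeq2 2, Hmox2 in Mutyh-/- (1.04) and Gsr in Ogg1-/- (-1.27), while limma with TMM factors called Sod2 in Mutyh-/- (2.39) and Gsr in Ogg1-/- (-1.67). The smallest p was for Gsr in Ogg1-/-, whose difference in NeuN+ was lower than that in NeuN- nuclei by 1.67 on the log2 scale (limma, adjusted p = 0.9996).

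The only H3K27me3 peak of a member in NeuN- nuclei was named for Srxn1 but lay at -10924 bp from its start, at chr2:152094192-152094592 within Scrt2. It had 0, 4.15 and 0 in WT, 4.80, 3.17 and 1.16 in Mutyh-/-, 8.77, 0 and 7.15 in Ogg1-/- and 9.54, 1.85 and 4.54 in DKO libraries. All groups overlapped WT. The fold changes of 1.11, 1.32 and 1.67, each with an SE of 1.16, stood against all-peak medians of 0.29, 0.58 and 0.41. It was called in no genotype with limma, edgeR or DESeq2, with 0 at an unadjusted p under 0.05, and backgrounds of 2.0%, 4.18%, 2.3% and, in any, 7.01%. Suz12 had 775 peaks in NeuN+ and 312 in NeuN- nuclei, and none was of a member.

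Another 50 genes of the pathway, such as glutathione transferases, NADPH sources and regulators of NRF2, were counted beside the members. In NeuN+ nuclei 37 of them had 39 H3K4me3 peaks, of which 1 was called higher in Mutyh-/- (Abcc1), 1 higher in Ogg1-/- (Gstp1) and 0 in DKO (0.911%, 0.966% and 1.46% of all peaks were called, in either direction). Abcc1, an exporter of glutathione conjugates, had 7.72, 12.7 and 19.4 in WT and 23.97, 27.6 and 32.4 in Mutyh-/- libraries (1.10 ± 0.48, SE). These groups did not overlap, as was so for 5.77% of all peaks in Mutyh-/-, in either direction. Gstp1 had 9.004, 11.7 and 17.2 in WT and 29.75, 20.5 and 43.1 in Ogg1-/- libraries (1.22 ± 0.48, SE). These groups did not overlap either, as was so for 3.68% of all peaks in Ogg1-/-, in either direction. Gstp1 has near-identical relatives, and the mapping of reads at its window was not tested.

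For H3K27me3 in NeuN+ nuclei, 5 of the 50 genes had 11 peaks, of which 2, 1 and 1 were called in Mutyh-/-, Ogg1-/- and DKO, against 3.78%, 3.82% and 3.36% of all peaks. In Mutyh-/- 1 intronic peak of Nxn, a thioredoxin-like protein, was lower (-2.02) and another higher (2.00), and in DKO its promoter peak was lower (-1.89). At Nudt1, which clears oxidised nucleotides, the called window was annotated to the 3' UTR, 6074 bp from the start. It had 19.7, 4.43 and 19.0 in WT and 3.96, 0 and 1.03 in Ogg1-/- libraries (-2.60 ± 0.85, SE). The WT libraries were all above those of Ogg1-/-, and 9.17% of all peaks had groups without overlap in Ogg1-/-, in either direction. For H3K4me3 in NeuN- nuclei 15 had a peak, of which Bach1, a repressor of NRF2 targets, was called higher in Ogg1-/- (2.46) and DKO (1.96), the only call in either, where 3.36% and 2.29% of all peaks were called. Its WT values were 16.6, 1.58 and 0, against 16.8, 20.8 and 18.5 and 14.9, 10.7 and 13.4. No call in this list had an adjusted p under 0.05 with limma.

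The 7 genes with an ARE core, of which 6 had an H3K4me3 peak, showed fold changes between -0.64 and 0.29 in Mutyh-/-, -0.66 and 0.39 in Ogg1-/- and -1.60 and 0.03 in DKO NeuN+ nuclei. None passed the test. Over all members and all settings tried, the smallest adjusted p was 0.475.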

How the data were processed

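Single-end ChIP-seq reads had been aligned by the authors to GRCm38 with Bowtie2 2.3.5.1, enriched regions called with epic2, consensus peaks counted with DiffBind 3.10.1 and annotated to the closest gene with ChIPseeker 1.36, and the authors used edgeR 3.42.4. How duplicates, blacklisted regions and input were treated is not given in the sources used here, and 24 input libraries were not used. The deposited unit is signal: reads in a window, 401 bp wide for 99.98% of peaks, over 1 scaling factor per library. All values (100%) were whole multiples of the value of 1 read (tolerance 1e-06 of a read), so whole read counts were recovered from the deposited signal. The text gives depth as these reads.

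Each table was fitted with limma 3.58.1 in R 4.3.3 on log2(signal + 1), over its 12 libraries with genotype as the only term, and p-values were adjusted by Benjamini-Hochberg over all peaks of the table. Calls required a log2 fold change beyond 0.5 in either direction and a p, before adjustment, below 0.05. The prior degrees of freedom were 24.9 and 58.3 for H3K4me3 in NeuN+ and NeuN- nuclei and infinite in the other 4 tables, where p rests on the trend over all peaks and not on the peak's own spread. The non-additive contrast was DKO minus both single knockouts plus WT. Whole reads were also tested with edgeR 4.0.16 and DESeq2 1.42.0. The tests were run first on simulated data. Other alternatives were TMM factors, a pseudocount of 4, a filter on the lowest 25% of peaks, robust moderation, only the libraries compared, a replicate block, an adjusted p rule and leaving out each library.

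The members and lists were chosen with earlier results of these data known. Library values are given for each member peak called, for the member peak with the smallest p in a table without a call, and for member peaks of H3K27me3, and the 3 highest and lowest WT levels are named in each fraction. Intervals of fold changes come from the fit.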

Additional observations from a re-analysis of the deposited data

How the results depend on the processing

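The count of member peaks called in any knockout for H3K4me3 in NeuN+ nuclei was 1 and became 3 with TMM factors (Msrb2 and Srxn1 in Mutyh-/- added), 4 with edgeR, 2 with DESeq2 and 0 with the adjusted p rule, and lay between 0 and 4 when 1 library was left out (0 without Ogg1-/- replicate 1, 4 without Mutyh-/- replicate 3). The non-additive count in NeuN+ nuclei was 0 and became 1 with TMM factors, edgeR, DESeq2, a pseudocount of 4, the filter on low values and the replicate block, and lay between 0 and 2 with 1 library left out. For H3K27me3 in NeuN+ nuclei the count of 0 became 1 (Nfe2l2 in Mutyh-/-) with TMM factors, robust moderation and the replicate block, and lay between 0 and 1 with 1 library left out. For H3K4me3 in NeuN- nuclei the count of 0 became 1 with TMM factors and lay between 0 and 2. The fraction count of 0 became 2 with TMM factors and 2 with DESeq2, and lay between 0 and 2. The counts for H3K27me3 and the non-additive contrast in NeuN- nuclei were 0 throughout. The cause of these changes was not tested. The H3K27me3 difference of Nfe2l2 changed sign with 1 library left out, lying between -0.087 and 0.24 in DKO and between -0.257 and 0.48 in Ogg1-/-.

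Replicate numbers are shared between genotypes. Each library was taken as its deviation from the mean of its own genotype, and same-numbered WT and knockout libraries were correlated. The correlations lay between -0.101 and 0.153 over the 4 tables with members, with no comparison having every pair over 0.1. In H3K27me3 NeuN+, H3K4me3 NeuN- and H3K27me3 NeuN- every correlation was positive (lowest 0.006, 0.008 and 0.001). Differently numbered libraries were not compared. For H3K27me3 in NeuN- nuclei the top peak held 20.6% to 53.5% of reads in replicate 1 and 64.9% to 73% in replicate 2. The main tests did not pair samples by number, and an effect of replicate number was otherwise examined only through the replicate block. Beside those given, the block changed none of the counts. TMM factors moved the median of all peaks by -0.21 and -0.18 in Mutyh-/- and Ogg1-/- H3K4me3 NeuN-, by 0.10 in Mutyh-/- H3K27me3 NeuN+, and by -0.18, -0.34 and -0.21 in the 3 knockouts of H3K27me3 NeuN-. How far reads per peak limited what a single promoter can show was not tested.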
